A study of Mus musculus with 12 samples.

Results

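The cytochrome P450 genes of families 1 to 4 were taken from mouse liver arrays by symbol. A probe set was a member if its single gene symbol on the 430A array was Cyp followed by 1, 2, 3 or 4 and then directly by a letter. This gave 49 of 12393 genes with a symbol of their own, read by 58 of the 22626 probe sets that are not controls, and on the larger 430 2.0 array the same symbol rule gave 56 of 18193 genes, read by 69 of 45037 probe sets. Of the 58 probe sets, 48 were of the plain _at type and 4 of the _a_at type, which reads several transcripts of 1 gene. A further 5 were of the _s_at type, whose probes are shared by several transcripts and can read related genes together. The last, for Cyp4f16, was of the _x_at type, in which some probes can match unrelated transcripts. Another 4 probe sets named a P450 of these families beside other genes and were left out.

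All mice were 10 weeks of age, and all values are from whole liver. The Fah p21 off group held 2 livers of Fah, p21 double knockout mice kept for 14 days on water in place of NTBC, and the Fah off group held 3 livers of Fah knockout mice treated the same way. The normal group held 4 livers of unlike mice: a wildtype mouse on water (normal 1), a wildtype mouse on NTBC (normal 2), a Fah knockout given NTBC (normal 3), and a mouse lacking both Fah and p21 that was given NTBC (normal 4). On 430 2.0 there were 2 further double knockout livers off NTBC (Fah p21 off 3 and 4) and a normal liver that carries the number of normal 4. Fah encodes the last enzyme of tyrosine breakdown. NTBC blocks an earlier step of that pathway, so its withdrawal lets toxic tyrosine products build up in mice without Fah. The labels name neither the sex nor the strain of the mice.

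Cytochrome P450 enzymes hold a heme group and insert an oxygen atom into their substrates, with electrons passed on from NADPH by a reductase. Families 1 to 3 oxidize drugs, pollutants, steroids and unsaturated fatty acids, and family 4 mainly hydroxylates the far end of fatty acids and eicosanoids. Hepatocytes, above all those near the central vein, make most of the P450 of the body. Their genes are switched by receptors for foreign chemicals and lipids: the aryl hydrocarbon receptor for Cyp1a, CAR and PXR for Cyp2b, Cyp2c and Cyp3a, and PPAR alpha for Cyp4a.

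Signals are the linear intensities that the authors deposited, scaled to a like mean on every array. Changes are differences of log2(signal + 9.9) on 430A with their standard error (SE), from 1 limma fit over the 9 arrays, and a probe set passed at a Benjamini-Hochberg adjusted p under 0.05 over all 15307 probe sets tested. A probe set was tested if 2 or more arrays reached their own 40th percentile, which lay between 73.8 and 100.1 signal units. The Fah signal was 114 and 105 in the Fah p21 off livers, 114, 101 and 108 in the Fah off livers, 6868 and 7120.1 in the wildtype livers, and 182 and 233 in normal 3 and 4. One probe set of Cdkn1a, the p21 gene, read 9.5 and 8.2 in the Fah p21 off livers, 990 to 1862 in the Fah off livers and 14.7 to 51.4 in the normal livers. Its other probe set read 1828 and 2059.6, 2814 to 3936 and 75.2 to 258, and whether it lies in the deleted part is not given here. Of 8 tested hepatocyte markers, 7 were lower in Fah p21 off livers and 8 in Fah off livers than in normal livers, with summed signals of 70197 to 74726, 72088 to 80944 and 112892 to 122025. All 5 tested cholangiocyte markers passed as higher in both off groups, with summed signals of 1240 to 1984, 1309 to 1393 and 165 to 330, while Krt7 stayed under 50 on every array. Macrophage markers were higher for 5 and 3 of 8 and stellate cell markers for 5 and 3 of 7 in Fah p21 off and Fah off livers. Beside these marker counts, 17.7% of all probe sets tested were higher and 10.7% lower in Fah p21 off livers, and 20.1% and 15.4% in Fah off livers. None of the tested neutrophil (4), lymphocyte (3), kidney (3) or pancreas (2) markers passed, and of 3 lung markers 1 was lower in Fah off livers.

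The summed P450 signal was lower in both groups off NTBC. The summed signal of the 58 probe sets was 81120 and 73784 in the Fah p21 off livers, 90057, 83905 and 76503 in the Fah off livers, and 152310 to 159560 in the normal livers. This was 0.723% to 0.863% of all array signal in the livers off NTBC, and 1.37% to 1.43% in the normal livers. The groups off NTBC did not overlap with the normal group in this sum. In whole liver, fewer hepatocytes and less P450 RNA per hepatocyte cannot be told apart, and the part of the lower hepatocyte markers in these falls was not tested.

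In Fah p21 off livers against normal livers, 5 of 48 tested members were higher, 27 were lower and 16 did not pass. Of all probe sets tested, 17.7% were higher and 10.7% lower in that comparison. In Fah off livers against normal livers, 8 members were higher, 27 were lower and 13 did not pass, where 20.1% of all probe sets were higher and 15.4% lower. The median change of the tested members was -0.87 log2 in Fah p21 off livers and -0.81 in Fah off livers, against 0.11 and 0.02 over all probe sets tested. In each comparison 9 members were at least 4-fold lower, as were 1.18% of all probe sets in the Fah p21 off livers and 1.45% in the Fah off livers. Both comparisons use the same 4 normal livers, so their results are given side by side only. After scaling to a common median, 1626 of all probe sets were higher and 2507 lower in Fah p21 off livers, against 2716 and 1637 as deposited, and the members' counts were 5 and 30.

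The filter left out 10 members that were dim on nearly all arrays, and it admitted Cyp2c54, the _a_at probe set of Cyp2d13 and 1 probe set of Cyp1b1 through the normal livers alone and Cyp4a31 through the livers off NTBC alone. Without any filter, 7 of 58 members were higher and 25 lower in Fah p21 off livers, beside 12.1% and 6.76% of all probe sets. In Fah off livers the unfiltered counts were 9 higher and 24 lower, beside 13.9% and 10.1%. Counted by separation, all Fah p21 off livers lay above all normal livers for 11 of the 58 members and below them for 31, beside 23.9% and 15.1% of all probe sets. All Fah off livers lay above the normal livers for 9 members and below them for 30, beside 17.8% and 15.4%.

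**Figure D1:**
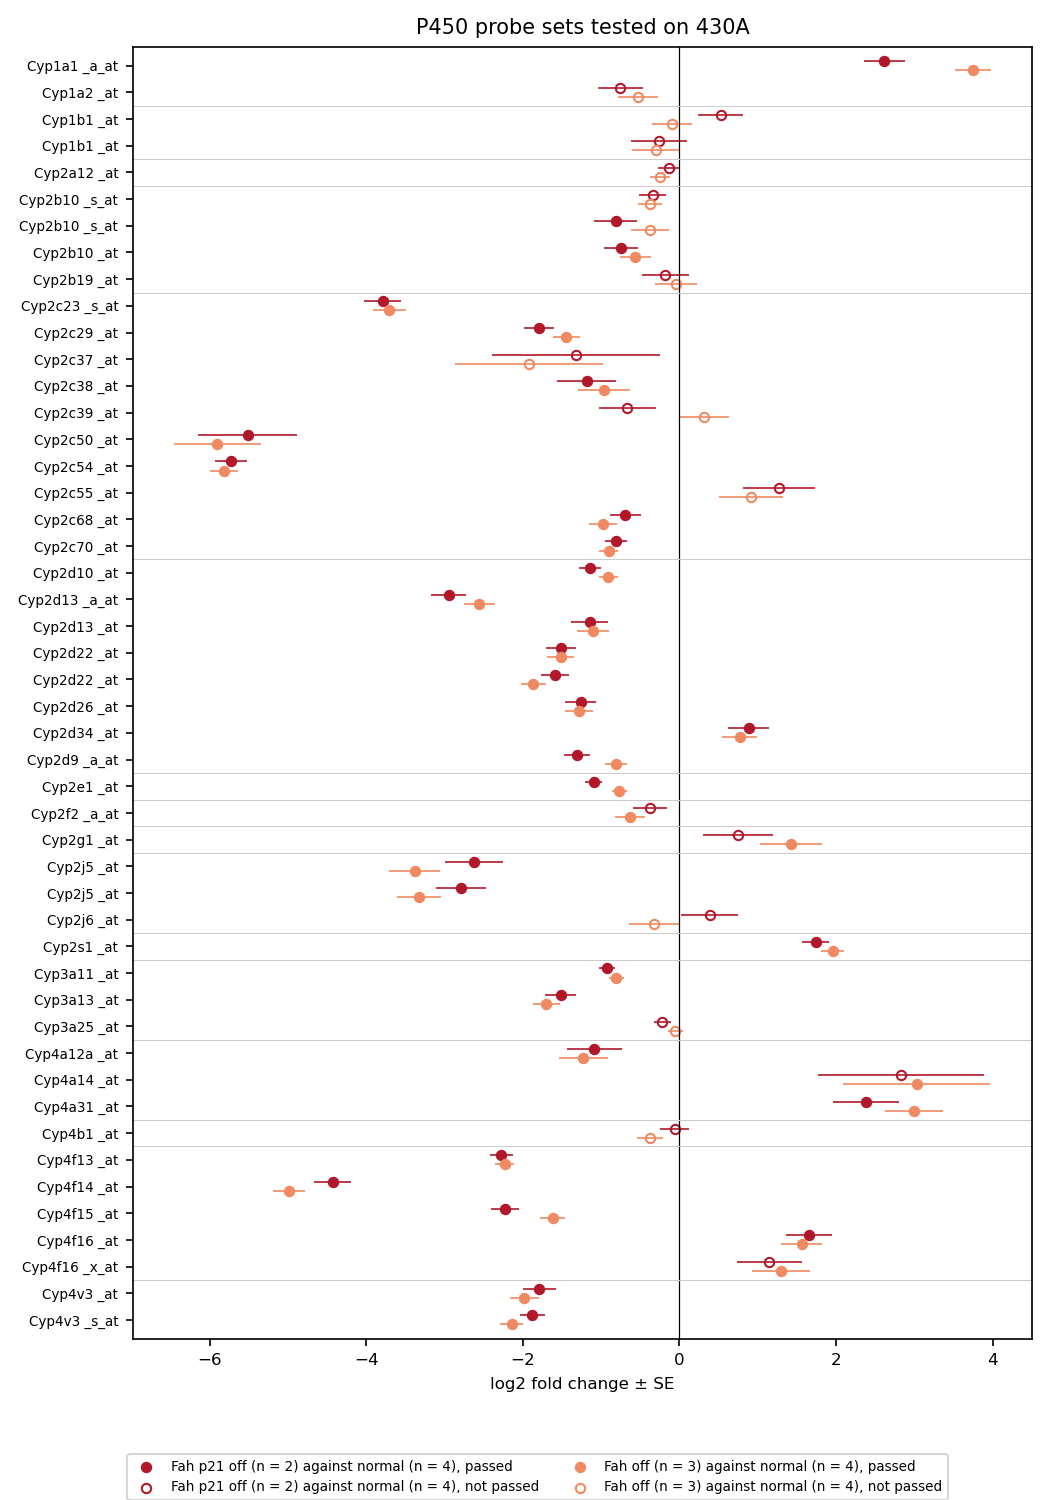
Log2 fold change with standard error of the 48 P450 probe sets tested on 430A, by subfamily. Dark red points show Fah p21 off against normal and orange points Fah off against normal, and filled points passed. Cyp2c50 and Cyp2c54 lie farthest to the left, below -5, and Cyp1a1 reached 2.62 and 3.75.

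Cyp1a1 was the family 1 gene that rose, while its neighbour Cyp1a2 on chromosome 9 did not pass. Cyp1a1 oxidizes polycyclic aromatic hydrocarbons and is the textbook target of the aryl hydrocarbon receptor. Its signal was 1493 and 785 in the Fah p21 off livers, 1776, 2520.3 and 3019 in the Fah off livers, and 148, 169, 195 and 163 in the normal livers. Every liver off NTBC lay above every normal liver, and the Fah p21 off livers lay below the Fah off livers. The change was 2.62 ± 0.26 log2 (SE, n = 2 against 4, limma adjusted p = 4.9e-05) in Fah p21 off livers and 3.75 ± 0.23 (n = 3 against 4, limma adjusted p = 1.1e-06) in Fah off livers, or 6.14-fold and 13.4-fold. Cyp1a2, which oxidizes caffeine and aromatic amines and is made at rest by pericentral hepatocytes, had signals of 4780.0 and 5171 in Fah p21 off livers, 8562, 6996 and 3279 in Fah off livers, and 7989.8 to 8983 in normal livers. Both Fah p21 off livers lay below the normal livers, while the Fah off livers overlapped with them. Its changes were -0.75 ± 0.29 (limma adjusted p = 0.073) and -0.53 ± 0.25 (limma adjusted p = 0.13). The change in Fah p21 off livers passed without Fah off 1 or Fah off 3, at the same size, and that in Fah off livers passed without Fah off 1, at -0.81. The 2 tested probe sets of Cyp1b1, on chromosome 17, an enzyme of estrogens and aromatic hydrocarbons found mostly outside the liver, did not pass, with changes between -0.30 and 0.53.

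The 250 bases before the start of Cyp1a1, and those of Cyp2c50, the probe set with the largest fall in Fah off livers, are shown as the promoters of genes that moved in opposite directions. They were read from RefSeq with build GRCm38.p6, at chr9:57697363-57697612 on the plus strand for Cyp1a1 and at chr19:40089429-40089678 on the plus strand for Cyp2c50. The capitals mark GCGTG, the core to which the aryl hydrocarbon receptor binds, and the TATA box letters TATAAA.
Cyp1a1: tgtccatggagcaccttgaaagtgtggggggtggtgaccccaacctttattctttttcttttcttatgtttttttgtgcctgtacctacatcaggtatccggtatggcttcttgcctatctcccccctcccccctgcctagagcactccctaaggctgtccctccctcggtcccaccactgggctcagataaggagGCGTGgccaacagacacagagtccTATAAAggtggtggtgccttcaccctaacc
Cyp2c50: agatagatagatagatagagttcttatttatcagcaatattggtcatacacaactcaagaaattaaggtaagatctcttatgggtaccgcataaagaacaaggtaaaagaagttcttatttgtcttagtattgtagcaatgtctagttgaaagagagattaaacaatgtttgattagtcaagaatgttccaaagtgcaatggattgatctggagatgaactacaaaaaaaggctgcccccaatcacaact
Besides these, CAAAGTCCA (an HNF4 element), TTGCNNAA (a C/EBP element) and a direct repeat bound by HNF4 and PPAR alpha, made of 2 copies of GGNCA with 2 A between them, were searched on both strands. RefSeq had a promoter for 39 of the 49 genes. GCGTG was found in the promoters of 9 of these genes and is common, being in 28.2% of all 32851 promoters. TATAAA was in those of 16 of the 39 genes, beside 12.4% of all promoters. The C/EBP element was in those of 8, beside 9.56%. Related genes of 1 cluster share promoter sequence, so these are not separate counts. None of the searched motifs was in the Cyp2c50 window, which says only that these letters are not there.

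The Cyp2c genes, all on chromosome 19, held the largest falls. They encode monooxygenases of drugs and arachidonic acid, several of them epoxygenases that make epoxyeicosatrienoic acids. Of 11 probe sets for 11 genes, 10 were tested, and 7 were lower and 3 did not pass in each of the comparisons with the normal livers. The median change was -1.25 log2 in Fah p21 off livers and -1.21 in Fah off livers.

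Cyp2c54, an arachidonic acid epoxygenase, read 76.8 and 61.7 in the Fah p21 off livers, 58.1, 60.6 and 75.0 in the Fah off livers, and 3718, 5624, 3857 and 3749 in the normal livers. All livers off NTBC lay under the 40th percentile of their arrays, so the size of the fall rests on dim signals there. The change was -5.73 ± 0.20 (limma adjusted p = 3.4e-08) in Fah p21 off livers and -5.82 ± 0.18 (limma adjusted p = 6.3e-09) in Fah off livers. Cyp2c50, another epoxygenase, read 57.1 and 102 in the Fah p21 off livers, 94.2, 10.0 and 129.5 in the Fah off livers, and 3133, 4140.4, 2922 and 6367 in the normal livers. The groups off NTBC and the normal group did not overlap, and the low value of Fah off 2 widened the error. The change was -5.51 ± 0.63 (limma adjusted p = 0.00011) in Fah p21 off livers and -5.90 ± 0.56 (limma adjusted p = 1.6e-05) in Fah off livers.

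Cyp2c23, also an arachidonic acid epoxygenase, is read by an _s_at probe set. It had signals of 352 and 441 in the Fah p21 off livers, 524, 452 and 309 in the Fah off livers, and 6594, 4899.5, 6839 and 4419 in the normal livers. The groups off NTBC and the normal group were far apart, with no overlap. The change was -3.79 ± 0.24 (limma adjusted p = 2.5e-06) in Fah p21 off livers and -3.71 ± 0.21 (limma adjusted p = 7.2e-07) in Fah off livers. Cyp2c29, the brightest of the subfamily in normal livers, read 2727 and 3532 in the Fah p21 off livers, 4685, 4372 and 3006 in the Fah off livers, and 11119, 11721, 11599 and 8863 in the normal livers. Its changes were -1.79 ± 0.19 and -1.44 ± 0.17, with limma adjusted p of 7.0e-05 and 7.5e-05. Cyp2c70, which makes the muricholic bile acids of mice, fell, with changes of -0.81 in Fah p21 off and -0.91 in Fah off livers, and so did Cyp2c68, with -0.69 and -0.98. The Cyp2c68 call in Fah p21 off livers was lost when either of those livers was left out (-0.84 and -0.54), and against normal 4 alone the change was -0.44. Cyp2c38 changed by -1.18 ± 0.38 and -0.97 ± 0.33 and passed with limma adjusted p of 0.036 and 0.041, but its Fah p21 off values, 260.1 and 618, overlapped with the normal range of 606 to 1492. Without Fah p21 off 1 its change in that group was -0.58 and did not pass, and the call in Fah off livers was lost when any of the Fah off livers was left out.

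Cyp2c37, Cyp2c39 and Cyp2c55 did not pass in the fit over all 9 arrays. Cyp2c37, an epoxygenase, read 135 and 96.7 in the Fah p21 off livers, 149, 35.9 and 65.0 in the Fah off livers, and 124, 139, 137 and 3126 in the normal livers. The normal livers thus held 1 high value, that of the double knockout on NTBC, and the other 3 lay within the range of the livers off NTBC. Set against the mouse of their own genotype on NTBC, the Fah p21 off livers differed by -4.66 log2 from normal 4 and the Fah off livers by -0.85 from normal 3. Each such value, here and for the genes below, rests on 1 control liver whose spread is taken from the livers off NTBC, and -4.66 rests on the 1 high value of normal 4. Cyp2c55 read 375 and 343 in the Fah p21 off livers, 525, 264 and 152 in the Fah off livers, and 132, 110, 98.1 and 288 in the normal livers. Its changes were 1.27 ± 0.46 and 0.91 ± 0.41, and without normal 4 they were 1.59 and 1.23 and passed. Cyp2c39, which also hydroxylates retinoic acid, read 334 and 969 in the Fah p21 off livers, 877, 1066 and 1560.1 in the Fah off livers, and 1037, 976, 1015 and 668 in the normal livers. Its changes were -0.67 ± 0.37 and 0.31 ± 0.32, and without Fah p21 off 2 the change in that group was -1.42 and passed. Cyp2c65 was too dim to be tested with the filter, and without it the change in Fah p21 off livers was 1.04 (limma adjusted p = 0.026).

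**Figure D2:**
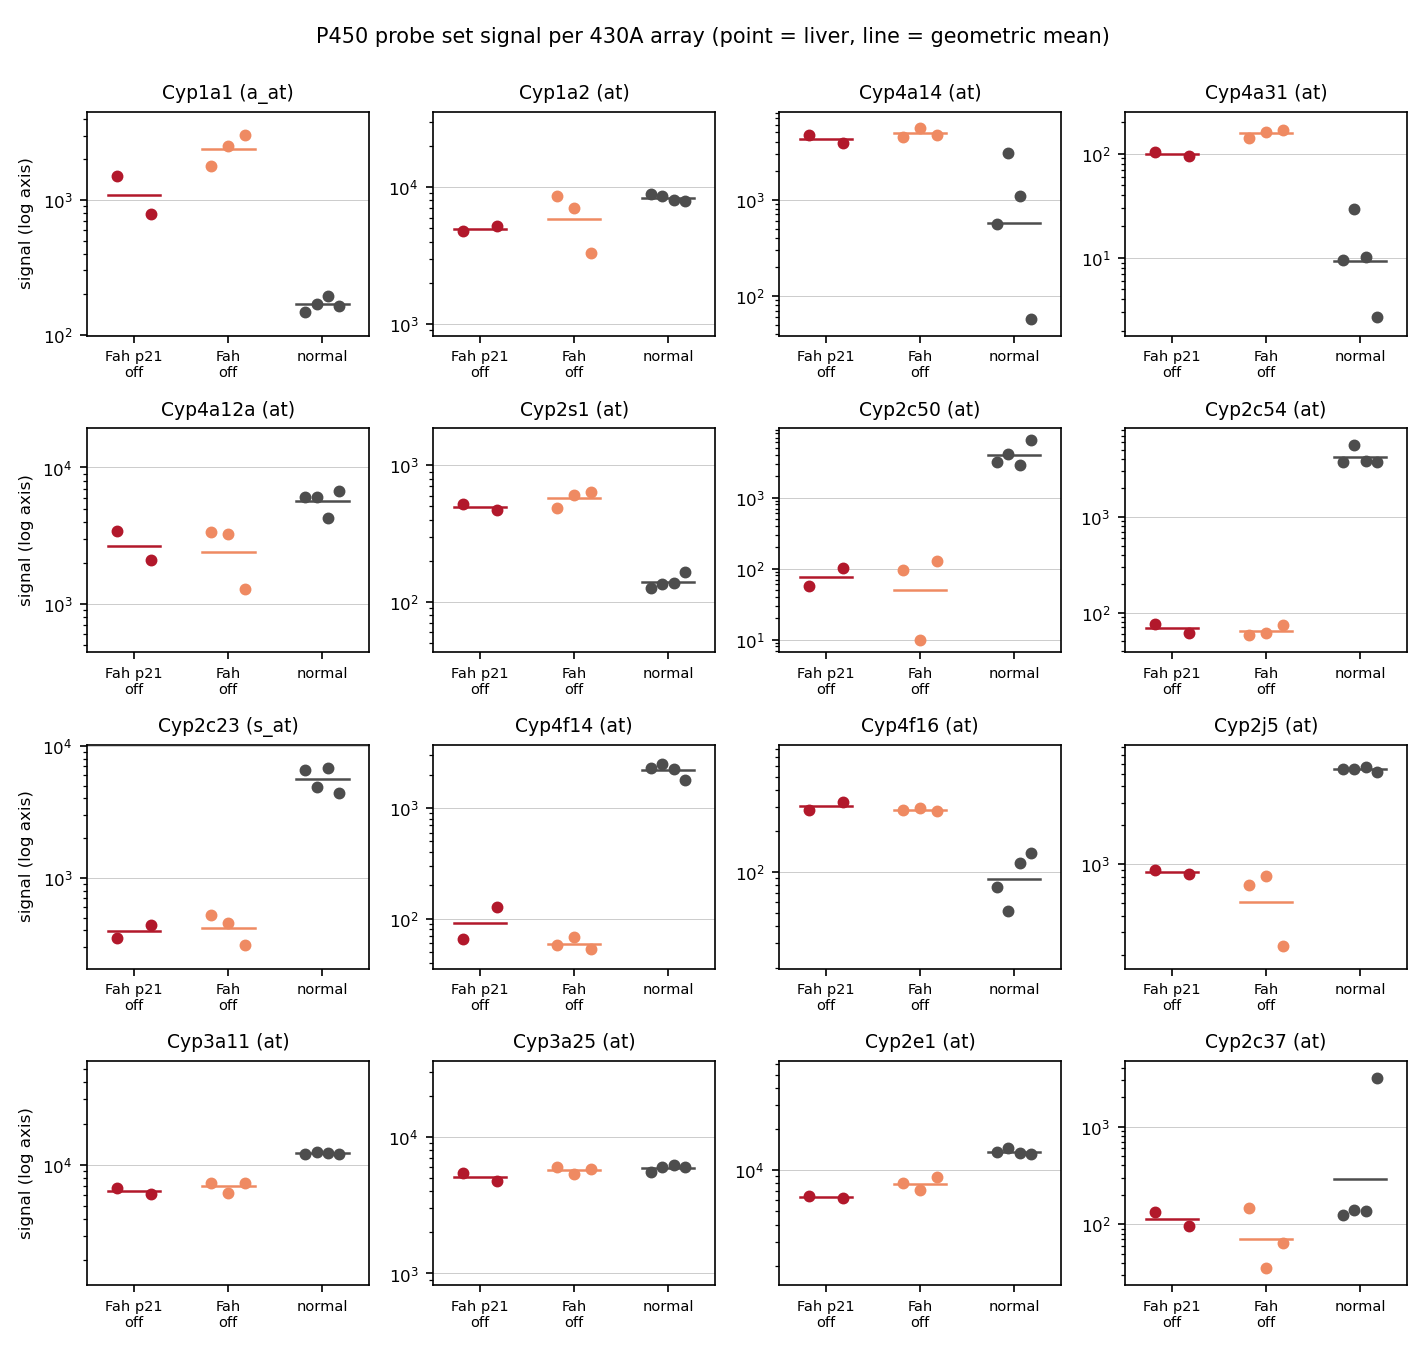
Signal on each 430A array, on log axes, for 16 P450 probe sets. Points are livers of the Fah p21 off (n = 2), Fah off (n = 3) and normal (n = 4) groups, and lines are geometric means. Cyp1a1, Cyp4a31 and Cyp2s1 lay above the normal livers in every liver off NTBC, Cyp2c50, Cyp2c54, Cyp2c23, Cyp4f14 and Cyp2j5 lay below them, and Cyp2c37 was high in normal 4 alone.

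The Cyp2d genes, on chromosome 15, include the mouse counterparts of the human drug enzyme CYP2D6 and the testosterone 16 alpha-hydroxylase Cyp2d9. Of 9 probe sets for 7 genes, 8 were tested: 7 were lower and 1 was higher in each of the groups off NTBC. Cyp2d9, a gene higher in male than in female mouse liver, read 4481 and 2878 in the Fah p21 off livers, 5214, 4491 and 5517 in the Fah off livers, and 9530.3, 8974, 8425 and 8667 in the normal livers. The changes were -1.31 ± 0.16 (limma adjusted p = 0.00020) and -0.81 ± 0.14 (limma adjusted p = 0.0012). Both probe sets of Cyp2d13 fell, the _a_at one with changes of -2.95 and -2.56 and the _at one with -1.15 and -1.11 in Fah p21 off and Fah off livers, so the size differs with the probe set. Those of Cyp2d22 fell too, with -1.52 and -1.59 in Fah p21 off livers and -1.52 and -1.87 in Fah off livers. Cyp2d26 gave -1.26 and -1.28, and Cyp2d10 -1.14 and -0.91, all of which passed. Cyp2d34 went the other way, with 155 and 132 in the Fah p21 off livers, 118, 144 and 133 in the Fah off livers, and 58.1, 61.6, 71.5 and 110.0 in the normal livers. The groups did not overlap, but 118 in Fah off 1 lay close to 110.0 in normal 4. Its changes were 0.88 ± 0.26 and 0.77 ± 0.23, with limma adjusted p of 0.025 and 0.021. It no longer passed against the mouse of the same genotype on NTBC (0.35 and 0.80). Both calls were also lost without normal 1 or normal 2, and that in Fah off livers without Fah off 2 or Fah off 3. The changes then lay between 0.67 and 0.81. Without Fah p21 off 1 or 2 the change in that group was 0.77 and 0.99. On the larger array Cyp2d34 was not tested. It read 19.6 and 2.0 in Fah p21 off 3 and 4 there, which overlapped with 4.9 in normal 4.

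Short stretches with the HNF4 element or the direct repeat are shown for the Cyp2c, Cyp3a and Cyp2d genes, since these are the rarer of the motifs searched and lie in groups with several falls. CAAAGTCCA was in the promoters of 5 member genes and in 0.384% of all promoters, and the direct repeat in those of 2 member genes and in 0.192%. Related genes of 1 cluster share promoter sequence, as the 2 Cyp2d stretches show, so these are not separate counts. Each stretch is printed in the direction of its gene, with the element in capitals, from RefSeq build GRCm38.p6: Cyp2c65 from chr19:39060878-39060910 on the plus strand, Cyp2c68 from chr19:39741158-39741190 on the minus strand, Cyp2c70 from chr19:40187330-40187362 on the minus strand, Cyp3a11 from chr5:145879943-145879975 on the minus strand, Cyp3a16 from chr5:145469802-145469834 on the minus strand, Cyp2d9 from chr15:82452312-82452347 on the plus strand and Cyp2d10 from chr15:82407227-82407262 on the minus strand.
Cyp2c65: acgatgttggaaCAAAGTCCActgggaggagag
Cyp2c68: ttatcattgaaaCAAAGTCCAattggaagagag
Cyp2c70: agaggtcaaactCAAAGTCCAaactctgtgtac
Cyp3a11: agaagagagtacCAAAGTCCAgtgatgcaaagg
Cyp3a16: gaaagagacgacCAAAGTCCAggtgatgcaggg
Cyp2d9: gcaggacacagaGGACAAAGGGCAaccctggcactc
Cyp2d10: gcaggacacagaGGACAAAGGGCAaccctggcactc
Of these, Cyp2c68, Cyp2c70, Cyp3a11, Cyp2d9 and Cyp2d10 passed as lower in both groups off NTBC, and Cyp2c65 and Cyp3a16 were too dim to be tested with the filter. Without it Cyp3a16 was higher in Fah p21 off and Fah off livers, by 2.03 and 1.78. Cyp2c65 was higher in Fah p21 off livers, by 1.04, and did not pass in Fah off livers (0.34, limma adjusted p = 0.37). Both genes lay below the filter level on every array, so these rises rest on dim signals. No common direction of genes with the HNF4 element is read from these values. The 2 Cyp2d stretches are identical letter for letter.

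The Cyp3a genes, on chromosome 5, are the mouse relatives of human CYP3A4, the main drug oxidase of the liver. Cyp3a11, the chief PXR target among them, read 6726 and 6071 in the Fah p21 off livers, 7369.6, 6218 and 7302 in the Fah off livers, and 12001, 12449, 12112 and 12012 in the normal livers. The normal values were close together and well above all others. The change was -0.93 ± 0.11 (limma adjusted p = 0.00011) in Fah p21 off livers and -0.81 ± 0.09 (limma adjusted p = 6.8e-05) in Fah off livers. Cyp3a13 fell as well, with changes of -1.52 and -1.70. Cyp3a25 did not pass, with 5438 and 4753 in the Fah p21 off livers, 6047, 5313 and 5769 in the Fah off livers, and 5523 to 6215 in the normal livers. Its changes were -0.22 ± 0.11 and -0.05 ± 0.10, and the difference in change from Cyp3a11 was not tested. Cyp3a16, a fetal and female-biased gene, was too dim to be tested: it read 56.7 and 54.9 in the Fah p21 off livers, 46.4, 53.4 and 36.8 in the Fah off livers, and 11, 3.4, 9.2 and 2.6 in the normal livers. Every liver off NTBC was above every normal liver, and in the fit without a filter the changes were 2.03 ± 0.28 and 1.78 ± 0.24, with limma adjusted p of 0.00066 and 0.00044. Cyp3a44, another female-biased gene, was dim in all groups.

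Other family 2 genes were mixed. Cyp2e1, on chromosome 7, which oxidizes ethanol and turns acetaminophen into its toxic product, read 6419 and 6276 in the Fah p21 off livers, 8007, 7149 and 8857 in the Fah off livers, and 13594, 14455, 13350.2 and 13015 in the normal livers. The 3 groups were separate, with the Fah p21 off livers lowest. The change against normal livers was -1.10 ± 0.11 (limma adjusted p = 4.1e-05) in Fah p21 off livers and -0.77 ± 0.10 (limma adjusted p = 0.00011) in Fah off livers. Cyp2j5, an epoxygenase of liver and kidney on chromosome 4, read 899.5 and 841 in the Fah p21 off livers, 689, 814 and 236 in the Fah off livers, and 5451, 5494, 5614 and 5151 in the normal livers with its brighter probe set. The groups did not overlap, and Fah off 3 was the lowest. The changes were -2.63 ± 0.37 (limma adjusted p = 0.00040) and -3.38 ± 0.32 (limma adjusted p = 1.8e-05), and its other probe set gave -2.79 ± 0.32 and -3.32 ± 0.28. Its neighbour Cyp2j6 did not pass on 430A, and Cyp2j9, Cyp2j13 and, among the Cyp2d genes, Cyp2d12 were not tested.

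Cyp2s1, on chromosome 7, an enzyme of epithelia that dioxin can induce, was higher in the livers off NTBC. It read 518 and 467 in the Fah p21 off livers, 484, 602 and 641 in the Fah off livers, and 126, 136, 137 and 165 in the normal livers, with no overlap. The changes were 1.74 ± 0.17 (limma adjusted p = 4.1e-05) and 1.96 ± 0.15 (limma adjusted p = 4.1e-06). Cyp2g1, best known from olfactory mucosa, read 267 and 77.2 in the Fah p21 off livers, 329, 270.3 and 152 in the Fah off livers, and 66.8, 59.4, 122 and 96.6 in the normal livers. The Fah p21 off livers overlapped with the normal livers and did not pass (0.74 ± 0.45), and the Fah off livers were higher by 1.42 ± 0.39 (limma adjusted p = 0.016). That call was lost without Fah off 1 or Fah off 2 (1.33 without the second) and against normal 3 alone (0.92), and without Fah p21 off 2 the change in Fah p21 off livers was 1.58 and passed. Cyp2f2, known for activating naphthalene in mouse airways, changed by -0.63 ± 0.19 in Fah off livers (limma adjusted p = 0.025), which passed, and by -0.38 ± 0.22 in Fah p21 off livers, which did not. The call in Fah off livers was lost without Fah off 3, where the change was -0.36. Cyp2a12, which hydroxylates bile acids and testosterone, did not pass, with 6400.2 and 5756 in Fah p21 off livers, 6420, 5679 and 4800.3 in Fah off livers, and 5937 to 7594 in normal livers.

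Cyp2b10, on chromosome 7, the textbook target of CAR, has 3 probe sets, 2 of them of the _s_at type, and none was higher. The plain probe set read 120.5 and 111 in the Fah p21 off livers, 116, 143 and 140.1 in the Fah off livers, and 171, 274, 165 and 208 in the normal livers. All livers off NTBC lay below the normal livers, and the changes were -0.74 ± 0.22 (limma adjusted p = 0.026) and -0.56 ± 0.19 (limma adjusted p = 0.042). One _s_at probe set passed in Fah p21 off livers at -0.82 ± 0.27 (limma adjusted p = 0.046), and the other did not pass in either comparison. The calls of Cyp2b10 were among the least stable, since leaving out any of 8 arrays ended that of the _s_at probe set that passed, and against normal 4 alone its change was -0.08. Cyp2b19 did not pass, and Cyp2b9 and Cyp2b13, 2 female-biased genes, were not tested.

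In family 4 the Cyp4a and Cyp4f groups were each split. Cyp4a14 and Cyp4a31, fatty acid hydroxylases on chromosome 4 and targets of PPAR alpha, were high in the livers off NTBC, and Cyp4a12a, a male-biased gene of the same cluster that makes 20-HETE, was low. Cyp4a14 read 4673 and 3899 in the Fah p21 off livers, 4486, 5489 and 4739 in the Fah off livers, and 558, 3043, 1094 and 58.0 in the normal livers. The groups did not overlap, but the normal livers ranged over 44.9-fold after the offset of 9.9 was added, with the wildtype on NTBC highest and the double knockout on NTBC lowest. The change was 2.83 ± 1.06 (limma adjusted p = 0.068) in Fah p21 off livers, which did not pass, and 3.03 ± 0.93 (limma adjusted p = 0.026) in Fah off livers. Against only the mouse of the same genotype on NTBC the changes were 5.98 in Fah p21 off livers, set by the low value of normal 4, and 2.15 in Fah off livers. In Fah p21 off livers it passed without normal 4, at 1.79, and without normal 2, at 3.61, and in Fah off livers it did not pass when any of the Fah off livers was left out.

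Cyp4a31 read 103 and 95.8 in the Fah p21 off livers, 142, 162 and 169 in the Fah off livers, and 9.6, 29.1, 10.3 and 2.7 in the normal livers, where it was dim on every array. Its changes were 2.38 ± 0.42 (limma adjusted p = 0.0016) and 2.99 ± 0.37 (limma adjusted p = 0.00011). Cyp4a12a read 3412 and 2103 in the Fah p21 off livers, 3378, 3247 and 1297 in the Fah off livers, and 6056, 6095, 4274 and 6697 in the normal livers. All livers off NTBC were lower, and the changes were -1.09 ± 0.35 (limma adjusted p = 0.040) and -1.23 ± 0.31 (limma adjusted p = 0.010). The first did not pass without normal 1, 2 or 4, at -1.06, -1.05 and -1.01. Against normal 4 alone it was -1.32, and against normal 3 alone the Fah off change was -0.82. The call in Fah p21 off livers was lost when either of those livers was left out, with changes of -1.44 without Fah p21 off 1 and -0.74 without Fah p21 off 2.

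Of the Cyp4f genes on chromosome 17, Cyp4f13, Cyp4f14 and Cyp4f15 fell and Cyp4f16 rose. Cyp4f14, which hydroxylates leukotriene B4 and vitamin E, read 66.0 and 128 in the Fah p21 off livers, 57.3, 68.9 and 53.2 in the Fah off livers, and 2283, 2501, 2272 and 1785 in the normal livers. The groups were far apart, with the off NTBC values near or under the filter level. The change was -4.43 ± 0.24 (limma adjusted p = 7.1e-07) in Fah p21 off livers and -4.99 ± 0.21 (limma adjusted p = 6.5e-08) in Fah off livers. Cyp4f13 read 139 and 136 in the Fah p21 off livers, 146, 148 and 132 in the Fah off livers, and 657, 716, 759 and 682 in the normal livers, with changes of -2.27 and -2.23. Cyp4f15 changed by -2.23 and -1.62, which passed. Cyp4f16 read 286 and 326 in the Fah p21 off livers, 282, 295 and 278 in the Fah off livers, and 77.5, 51.8, 116 and 137 in the normal livers, with changes of 1.66 ± 0.30 (limma adjusted p = 0.0018) and 1.56 ± 0.26 (limma adjusted p = 0.00084). Its _x_at probe set gave 1.15 ± 0.42, which did not pass, and 1.30 ± 0.37, which did. It read 147 and 152 in the Fah p21 off livers, 147, 153 and 206 in the Fah off livers, and 39.2, 34.1, 72.7 and 140.3 in the normal livers. Normal 4 thus lay close to the livers off NTBC: the Fah p21 off change was 0.09 against normal 4 alone, and 1.51 without normal 4, which passed. The Fah off call was lost without Fah off 3 (1.15).

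Cyp4v3, on chromosome 8, the mouse counterpart of the human gene mutated in Bietti crystalline dystrophy, has an _at and an _s_at probe set, and both fell. The _s_at probe set read 1037 and 1051 in the Fah p21 off livers, 969.5, 997 and 676 in the Fah off livers, and 3955, 3790.3, 3676 and 4060.0 in the normal livers. The changes were -1.88 ± 0.16 and -2.14 ± 0.14, and those of the _at probe set -1.79 ± 0.21 and -1.98 ± 0.18. Cyp4b1, an enzyme mostly of lung, did not pass, with changes of -0.06 and -0.38, and Cyp4f18 was not tested.

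By function, 9 arachidonic acid epoxygenases named in a list were tested. Cyp2c23 was not in the list under that symbol, and the list's entry Cyp2c44 matched no symbol on the array. The counts therefore leave out the Cyp2c23 probe set, which was lower in both groups off NTBC. Of the 9 tested, 5 were lower and none higher in each group off NTBC, with median changes of -1.32 in Fah p21 off livers and -1.44 in Fah off livers. Among 8 tested fatty acid hydroxylases of family 4, 2 were higher and 5 lower in Fah p21 off livers, and 3 were higher and 5 lower in Fah off livers. Over all probe sets tested, 17.7% were higher and 10.7% lower in Fah p21 off livers, and 20.1% and 15.4% in Fah off livers. The lists were written with earlier results of these data known and are given as counts only.

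Fah p21 off livers were also set against Fah off livers, which asks what the loss of p21 adds once NTBC is withdrawn. By limma none of the 48 tested members passed, beside 0.0392% of all probe sets tested. Of the 48, 6 had an unadjusted p under 0.05, as had 1234 of all 15307 probe sets, and the median difference was 0.01 log2. The Fah p21 off livers lay above all Fah off livers for 4 members and below them for 6, beside 17.1% and 10.9% of all probe sets.

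Cyp1a1 had the lowest adjusted p, 0.22 by limma, with a difference of -1.13 ± 0.28 and a 95% interval from -1.74 to -0.52. Cyp4f15 differed by -0.61 (95% interval -1.03 to -0.20), Cyp2d9 by -0.49 (-0.87 to -0.11), Cyp2e1 by -0.33 (-0.58 to -0.08) and Cyp2c39 by -0.98 (-1.83 to -0.13). Cyp4f14 was the member of these 6 that was higher, by 0.56 (0.02 to 1.11). The intervals are not adjusted for the number of probe sets tested. Besides Cyp1a1, the limma adjusted p of these members ran from 0.37 for Cyp4f15 to 0.60 for Cyp4f14. For 31 of the 48 members the 95% interval lay within 1 log2 unit of 0. For the others, such as Cyp4a14 and Cyp2c37, a 2-fold difference was within the interval. The fit takes its spread from all 9 arrays. The widths for Cyp4a14 and Cyp2c37 therefore also hold the wide range of the normal livers, which are not part of this comparison. Cyp4a14 itself read 4673 and 3899 in the Fah p21 off livers and 4486, 5489 and 4739 in the Fah off livers. With 2 and 3 livers these intervals do not show that the groups were alike. The larger array held double knockout livers Fah p21 off 3 and 4 but no Fah off livers. The difference between the groups was not tested there. Against normal 4, Cyp1a1 rose there by 4.43, not less than the 3.75 of Fah off livers on the 9 arrays. Changes there of Cyp2e1 (-0.715) and Cyp2d9 (-0.67) were also nearer to those of Fah off livers. Those of Cyp4f15 (-2.20), Cyp2c39 (-0.46) and Cyp4f14 (-3.85) were nearer to those of Fah p21 off 1 and 2.

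**Figure D3:**
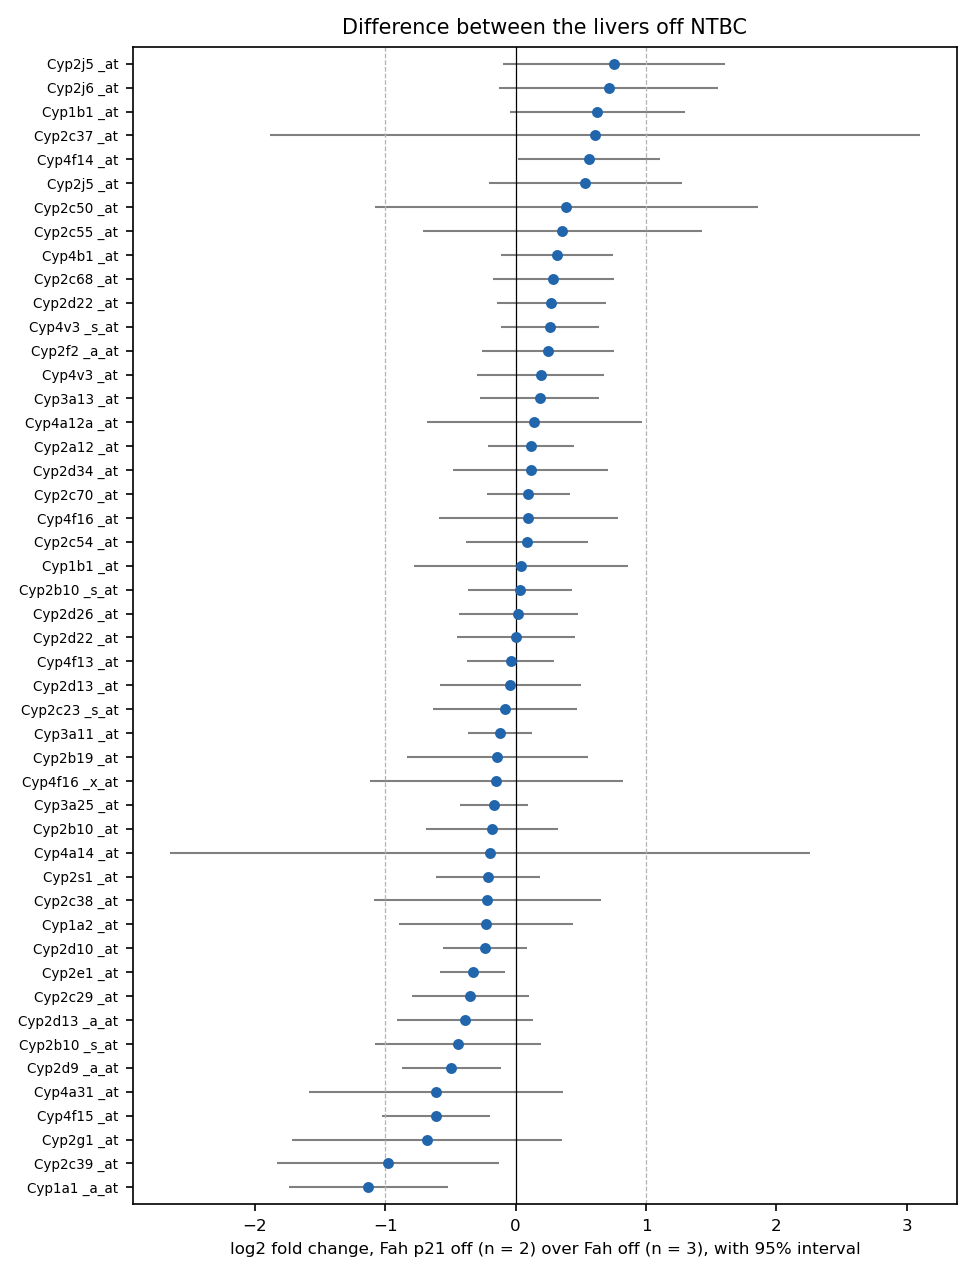
Difference in log2 signal between Fah p21 off (n = 2) and Fah off (n = 3) livers for the 48 P450 probe sets tested, with 95% intervals, ordered by size. Dashed lines mark 1 log2 unit. None passed, 31 intervals lay within the dashed lines, and Cyp1a1 was lowest at -1.13.

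On the 430 2.0 array, 2 other double knockout livers off NTBC (Fah p21 off 3 and 4) were set against normal 4. Of 56 tested members 9 were higher, 23 were lower and 24 did not pass by limma, beside 7.71% higher and 3.8% lower of 26925 probe sets. This fit had 1 residual degree of freedom, took the single normal liver to vary like the other livers, and shares the mouse of normal 4 with the 430A comparison. The summed signal of the 69 members was 161740 and 179630 in Fah p21 off 3 and 4, and 306900.0 in normal 4. The 2 arrays were scaled separately, so their signals are not compared with each other.

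Cyp2c54 read 21.8 and 44.8 in Fah p21 off 3 and 4, against 9157 in normal 4, a change of -8.02 ± 0.43 (limma adjusted p = 0.00029). Cyp2c50 read 263 and 240.3 in Fah p21 off 3 and 4, against 15334 in normal 4, a change of -5.91 ± 0.24 (limma adjusted p = 0.00013). Cyp2c37, which had its high value in normal 4 on 430A too, read 478 and 272 in Fah p21 off 3 and 4, against 7548 in normal 4, and passed at -4.37 ± 0.35 (limma adjusted p = 0.00075). Among the genes that were higher, Cyp1a1 read 2992 and 2642 in Fah p21 off 3 and 4, against 126 in normal 4, a change of 4.43 ± 0.24 (limma adjusted p = 0.00030). Cyp4a14 read 7766 and 9772 in Fah p21 off 3 and 4, against 94.2 in normal 4, a change of 6.47 ± 0.25 (limma adjusted p = 0.00012). Cyp2s1 changed by 4.01, Cyp2g1 by 2.14, the plain probe set of Cyp4f16 by 1.73 and 1 probe set of Cyp4a31 by 2.60. The _x_at probe set of Cyp4f16 and the other of Cyp4a31 also passed as higher. Cyp4f16 read 121 and 126 there in Fah p21 off 3 and 4, against 3.8 in normal 4, and Cyp4a31 read 235 and 232, against 1.2. Both normal values lay under the 40th percentile of that array, 34.2, so the size of these changes depends on the offset, and no fold is given. Cyp3a11 and Cyp2e1 did not pass there, with changes of -0.24 ± 0.23 and -0.72 ± 0.27. Of the other members lower on 430A, Cyp2c68, Cyp2c70, Cyp2d9 and Cyp2d10 did not pass either, with -0.63, -0.54, -0.67 and -0.74. Nor did Cyp2c38, with -1.23, or the Cyp2b10 probe sets that passed on 430A, with -0.37 (_s_at) and -0.74 (_at).

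There were 11 probe sets found only on 430 2.0. Of these, 1 probe set of Cyp2u1 fell, with -2.42, as did Cyp2r1, a vitamin D hydroxylase, with -1.47, and another probe set of Cyp2j6, with -1.52. The Cyp4a31 probe set given above as higher by 2.60 is among them. Cyp4f39 was higher by 2.04, but its signal in normal 4, 33.6, lay under the 40th percentile of that array, 34.2. Cyp2d40 and the other Cyp2u1 probe set did not pass, and Cyp2j11, Cyp4f41-ps, Cyp4x1 and another Cyp4f18 probe set were not tested.

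**Figure D4:**
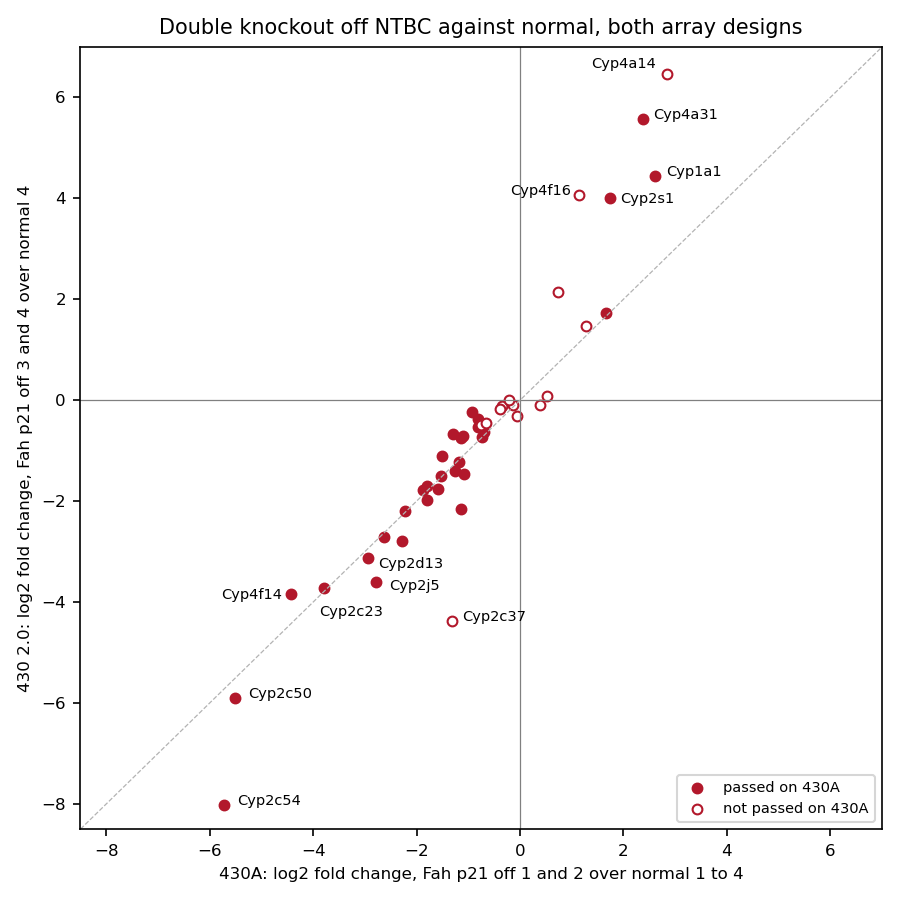
Log2 fold change of Fah p21 off against normal for the 45 P450 probe sets tested on both array designs, with 430A on the x axis and 430 2.0 on the y axis. Filled points passed on 430A, and the dashed line marks equal change. The comparisons use different double knockout livers but share the mouse of normal 4, and Cyp4a14 and Cyp2c37, which varied among the normal livers of 430A, lie farthest from the line among those that did not pass. The 430 2.0 positions of Cyp4a31 and of the _x_at probe set of Cyp4f16 rest on dim normal signal.

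Within the normal group most members varied little: the median fold between the highest and the lowest of the 4 livers, taken on signal + 9.9, was 1.401, and 26 of 48 tested members stayed under 1.5-fold. On that scale Cyp4a14, with 44.9-fold, and Cyp2c37, with 23.4-fold, were the 2 members over 4-fold. Because the 4 normal livers differ in genotype and drug, these ranges cannot be told apart into differences between mice and effects of genotype or NTBC.

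Genes that serve the P450 enzymes were read beside them. Of 14 tested genes of electron transfer and heme supply, 1 was higher and 5 lower in Fah p21 off livers, and 1 was higher and 4 lower in Fah off livers. These counts stand beside 17.7% higher and 10.7% lower of all probe sets in Fah p21 off livers, and 20.1% and 15.4% in Fah off livers. Hmox1, which breaks heme down, read 3126 and 896 in the Fah p21 off livers, 1929, 1929.8 and 3358 in the Fah off livers, and 209, 135.5, 162 and 349 in the normal livers. Its changes were 3.00 ± 0.47 and 3.47 ± 0.41. Alad, an early enzyme of heme synthesis, fell, with changes of -1.33 and -1.70, as did Urod, a later one, with -0.91 and -0.71, and Cyb5a, which passes electrons to P450 enzymes, with -0.52 and -0.51. Alas1, the first enzyme of heme synthesis in mitochondria, did not pass.

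Of 23 tested receptors and factors that act on P450 genes, 1 was higher and 9 lower in Fah p21 off livers, and 2 were higher and 10 lower in Fah off livers. Among all probe sets the shares were 17.7% and 10.7% in Fah p21 off livers, and 20.1% and 15.4% in Fah off livers. Nr1i3, which encodes CAR, fell, with changes of -1.27 and -0.95, and so did Rxra, its partner, with -1.47 and -1.51, and Dbp, a clock factor, with -1.90 and -2.15. Cebpa and Hnf4a, hepatocyte factors, fell with -1.16 and -1.07 and with -0.50 and -0.51. Ahr, the receptor that acts on Cyp1a1, read 721 and 592 in the Fah p21 off livers, 1068, 936 and 1028 in the Fah off livers, and 575, 606, 543 and 466 in the normal livers. It changed by 0.26 ± 0.16 in Fah p21 off livers, which did not pass, and by 0.88 ± 0.14 (limma adjusted p = 0.00056) in Fah off livers. Nfe2l2, the factor of the oxidative stress response, rose, to 2.64-fold and 2.44-fold of the normal level.

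Other targets of the same receptors were counted to set the P450 genes beside them. Shares over all probe sets were 17.7% higher and 10.7% lower in Fah p21 off livers, and 20.1% and 15.4% in Fah off livers. Of 3 tested targets of the aryl hydrocarbon receptor, 2 were higher in each group off NTBC: Nqo1, which Nfe2l2 also acts on, by 2.87 and 2.70, and Tiparp by 0.94 and 0.89. Of 11 tested targets of CAR and PXR, 3 were higher and 2 lower in each group, among them Abcb1a, with changes of 2.14 and 2.46, and Ces2a, with -2.49 and -2.44. Of 13 tested targets of PPAR alpha, 6 were higher and 2 lower in Fah p21 off livers, and 7 higher and 1 lower in Fah off livers. Pdk4 was higher by 4.50 and 5.12, Fgf21 by 3.77 and 4.44 and Acot1 by 3.15 and 3.50, while Fabp1 fell, with -0.85 and -0.69.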

How the data were processed

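Liver RNA was read on 9 arrays of the 430A design and 3 of the 430 2.0 design. The authors deposited 1 intensity signal per probe set and array, and per the submitters' processing notes the tools were MAS5 and GCOS, version 1.4.0.036. No detection calls were used. Here log2 was taken after adding an offset, the 10th percentile of each table's signals (9.9 on 430A, 3.8 on 430 2.0), which understates changes of dim probe sets. The 64 controls of each design were left out. Each table was fitted on its own with limma 3.58.1 in R 4.3.3 (lmFit, eBayes with trend), the groups sharing 1 spread. The 430A fit had 6 residual and 5.01 prior degrees of freedom. The code was tested on simulated data. The number of arrays limits the precision, and whether the titles' biological replicates come from separate litters is not given, so p-values measure the spread between these samples.

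Gene symbols are those of the platform annotation, and all 58 and 69 members had the same symbol in RefSeq for GRCm38.p6. Named were the 10 largest rises and falls per comparison among members that passed with separate groups, the brightest gene of each subfamily, genes whose probe sets differ, and up to 4 members of each list; other members are named to account for all of them. The members and lists were chosen with earlier results of these data known. The alternatives were other filters, offsets and normalizations, limma without trend or robust, a replicate block, a 2-fold minimum, genotype-matched controls, fewer probe sets, and leaving out each array. Plots were made in Python 3.11.15 (matplotlib 3.10.9).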

Additional observations from a re-analysis of the deposited data

Results flagged for a closer look

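Among the 48 tested members, 3 had a normal liver that stood apart from the other normal livers, by a gap above Dixon's critical value for 4 samples. Chance flags about 1 in 20 groups of this size. Cyp2c37 was high in normal 4, the double knockout on NTBC, at 3125.6, where the gap took 0.967 of the range. Cyp2c39 was low in the same liver at 668.0, with a gap of 0.862. Cyp2c54 was high in normal 2, the wildtype on NTBC, at 5623.7, with a gap of 0.911. Cyp2c37 and Cyp2c39 did not pass against the 4 normal livers, and Cyp2c54 was lower in the livers off NTBC than in each of the normal livers.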

How the results depend on the processing

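Over all alternatives run, the 27 lower members of Fah p21 off livers were 22 to 30 and the 27 of Fah off livers 18 to 28, and the change of no called member turned its sign. With each array left out in turn the lower counts were 22 to 27 in Fah p21 off and 25 to 27 in Fah off livers. Against the 5 higher members in Fah p21 off livers there were 3 with the filter at the 60th percentile and 8 with the replicate block, and 4 to 9 with each array left out, the 9 without normal 4. Against the 8 in Fah off livers there were 5 with the filter at the 60th percentile, which tests fewer dim probe sets, and 5 to 9 with each array left out, the 5 without Fah off 2. On 430 2.0 the 32 calls became 17 with no filter, where more probe sets are tested. Fah p21 off against Fah off gave 0 calls under every alternative run.

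Deviations of same-numbered livers from their group means had r of -0.22, -0.17 and -0.28 between normal and Fah off livers 1 to 3. Between Fah off and Fah p21 off livers 1 and 2 they were 0.04 and 0.07. Differently numbered normal and Fah off livers ranged from -0.20 to 0.26. Centring such small groups on their own means constrains these values, so they cannot decide whether the numbers pair livers. Blocked on the number, the counts were 8 higher and 27 lower in Fah p21 off and 9 higher and 26 lower in Fah off livers. The members' median in Fah p21 off livers was -0.72 with no filter, -1.10 with the filter at the 60th percentile, -0.75 after quantile normalization, -1.11 after scaling to a common median, -0.94 with the block and -0.93 without _s_at and _x_at probe sets. In Fah off livers it was -0.57 with no filter and -0.56 after quantile normalization. Scaling to a common median moved the median of all probe sets in Fah p21 off livers to -0.13, against 0.11. Of the single probe sets' alternatives in the comparisons with normal livers, 45 and 42 ended a call in Fah p21 off and Fah off livers, mostly of Cyp2b10, Cyp2c38, Cyp2d34, Cyp2f2 and Cyp4a12a, and 21 and 11 gained one, among them Cyp1a2, Cyp2c55 and the _x_at probe set of Cyp4f16; the cause was not tested. Dim signals limit the size of the largest falls, and of the rises of Cyp4a31, Cyp4f16 and Cyp4f39 on 430 2.0.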

Other observations

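P450 genes of other families, which make bile acids and steroids, moved in both directions too. Of 12 tested, 3 were higher and 4 lower in Fah p21 off livers, and 2 were higher and 4 lower in Fah off livers. Beside these, 17.7% and 10.7% of all probe sets were higher and lower in Fah p21 off livers, and 20.1% and 15.4% in Fah off livers. Cyp39a1, an oxysterol hydroxylase, read 1125 and 927 in the Fah p21 off livers, 729.6, 675 and 682 in the Fah off livers, and 86.5, 112, 126 and 56.1 in the normal livers, a change of 3.35 ± 0.25 and 2.80 ± 0.22. Cyp7b1, also an oxysterol hydroxylase, fell, with -2.82 and -2.56, and Cyp7a1, the rate-limiting enzyme of bile acid synthesis, with -1.82 and -0.97. Cyp8b1, which makes cholic acid, changed by -1.67 in Fah p21 off livers, which passed, and by -0.47 in Fah off livers, which did not, and the difference between these groups did not pass.

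Genes other than P450 that mark the zones of the liver lobule were also read. Of 10 tested pericentral genes none was higher and 6 were lower in Fah p21 off livers, and 1 was higher and 5 lower in Fah off livers, with medians of -0.91 and -0.49. Oat fell, with changes of -3.29 and -3.45, and Glul with -0.93 and -0.56. Of 6 tested periportal genes 3 were higher and 3 lower in Fah p21 off livers, and 2 were higher and 3 lower in Fah off livers. Their median changes were 0.14 and -0.14, since the list was split between rises and falls. Their summed signal was lower, at 10072 to 10789 in Fah p21 off and 8988 to 10328 in Fah off livers. In the normal livers that sum was 16726 to 19746. For both zones the shares over all probe sets were 17.7% higher and 10.7% lower in Fah p21 off livers. In Fah off livers they were 20.1% and 15.4%. Among the periportal genes that were lower are the 2 named next. Hal fell, with -3.06 and -3.88, and Pck1 with -2.04 and -1.81.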
